A study of Mus musculus with 6 samples.

Results

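Type IV collagen, the sheet-forming collagen of basement membranes, is built from 6 chains, and the genes Col4a1 to Col4a6 were followed here in mouse kidneys with a tied-off ureter. The members were the rows of the deposited expression table with these gene names, 6 of 33679 genes. They were compared between kidneys labelled Cd248 KO and kidneys labelled wild type (WT), all of them after unilateral ureteral obstruction, a surgical injury that leads to scarring. Cd248 encodes endosialin, a surface glycoprotein of fibroblasts and pericytes. Values were used from 1 Cd248 KO library and 3 WT libraries, and Cd248 KO replicates 2 and 3 were not analysed here. The sources used here do not give how the deletion was made, the strain, age or sex of the mice, or the time after obstruction. The labels' protocols speak of pooled RNA, and nothing says that replicates came from separate animals, so every error and p-value below measures a spread among libraries that may be technical only.

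The chains assemble as trimers of fixed make-up. The trimer of α1 and α2 chains lies in nearly all basement membranes, including those of vessels, tubules and the mesangium. The trimer of α3, α4 and α5 chains forms the mature glomerular basement membrane, where podocytes make it, and also occurs in some tubules; mutations in its genes cause Alport syndrome. The trimer of α5 and α6 chains is found in Bowman's capsule and some collecting ducts. The genes lie in head-to-head pairs, each pair transcribed outward from neighbouring start sites.

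In the GENCODE M21 annotation of mm10, Col4a1 (ENSMUSG00000031502) occupies the minus strand of chromosome 8 at chr8:11198423-11312826. Col4a2 (ENSMUSG00000031503) runs the other way at chr8:11312805-11449287, so the pair overlap by 22 bases at their 5′ ends. Col4a4 (ENSMUSG00000067158; chr1:82448423-82586849, minus strand) and Col4a3 (ENSMUSG00000079465; chr1:82586921-82722059, plus strand) are separated by 71 bases. Col4a6 (ENSMUSG00000031273; chrX:141165403-141474076, minus strand) and Col4a5 (ENSMUSG00000031274; chrX:141475385-141689234, plus strand) are separated by 1308 bases. The principal transcripts have between 45 and 53 exons and nearly equal coding lengths, from 5007 to 5121 bases, spread over 114.4 kb in Col4a1 and up to 308.7 kb in Col4a6.

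**Figure D1:**
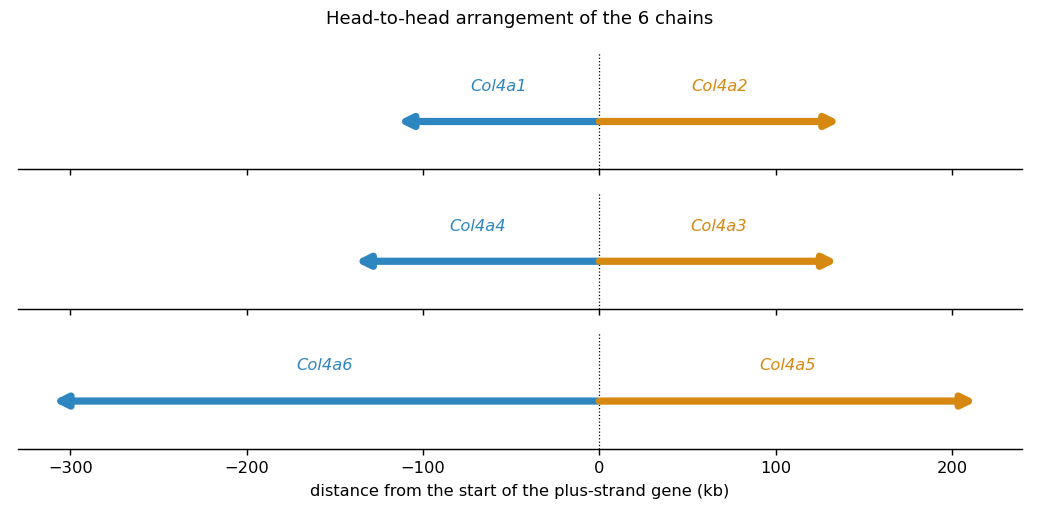
Gene spans of the 3 head-to-head pairs, drawn to scale as distance in kb from the start of the plus-strand gene, with arrows in the direction of transcription. The Col4a1 and Col4a2 starts overlap by 22 bases, those of Col4a4 and Col4a3 lie 71 bases apart, and those of Col4a6 and Col4a5 lie 1308 bases apart.

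The bases at these starts are shown because the pairs differ in how much of them is shared: the first 2 pairs start within 1 short stretch, while Col4a5 and Col4a6 have separate upstream stretches. They were taken from RefSeq promoter windows of build GRCm38.p6, which held 5 of the 6 chains, all but Col4a3. Capitals mark a GC box (GGGCGG) or a CCAAT box (CCAAT) on either strand, and a TATA box (TATAAA) was searched as well.
Col4a1 and Col4a2, overlapping first bases, chr8:11312805-11312826, plus strand: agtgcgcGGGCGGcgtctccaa
Col4a4 and Col4a3, bases between the starts, chr1:82586850-82586920, plus strand: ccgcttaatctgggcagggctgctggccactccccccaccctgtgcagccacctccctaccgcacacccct
Col4a5, upstream bases, chrX:141475169-141475369, plus strand: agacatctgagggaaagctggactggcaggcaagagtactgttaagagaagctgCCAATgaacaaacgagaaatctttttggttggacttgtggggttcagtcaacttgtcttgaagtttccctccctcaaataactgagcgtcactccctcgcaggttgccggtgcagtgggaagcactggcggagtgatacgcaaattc
Col4a6, upstream bases, chrX:141474096-141474326, minus strand: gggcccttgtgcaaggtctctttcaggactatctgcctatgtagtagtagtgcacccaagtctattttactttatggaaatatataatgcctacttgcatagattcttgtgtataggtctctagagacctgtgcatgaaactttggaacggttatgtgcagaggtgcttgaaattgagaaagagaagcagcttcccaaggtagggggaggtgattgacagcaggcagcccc
In the whole windows of 300 bases around the start, a GC box stood in 4 of 5 chains, with 3 in the Col4a2 window, against 35.7% of 32851 promoter windows of the same length. A CCAAT box stood in 3 of 5, against 37.4%, and a TATA box in 0 of 5, against 13.6%. The Col4a1 and Col4a2 windows overlap, so they share some of these matches. GC content was 74.0% and 73.7% in the Col4a1 and Col4a2 windows, 63.3% for Col4a4, 52.7% for Col4a5 and 48.3% for Col4a6, and the median of all windows was 52.7%. A match of letters is a description and not a binding site.

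Expression is given as FPKM, fragments scaled to the length of the transcript and to the mapped fragments of the library, which allows levels of different genes to be set side by side. The read depth is unknown. Differences and tests of single genes used the log2(FPKM + 1) scale, which understates the change of low genes. Fold values and ratios between chains were formed from FPKM with nothing added. The 16871 genes whose mean over the 4 libraries reached 0.5 FPKM were fitted with limma, and all 6 chains were among them. Cd248 itself was listed at 0 FPKM in the Cd248 KO library, against 9.03, 9.57 and 8.78 FPKM in WT libraries 1, 2 and 3, so the libraries followed their labels. Immunoglobulin genes took 5.98% of the FPKM total in the Cd248 KO library and between 0.113% and 0.202% in the WT libraries.

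The order of levels was the same in all 4 libraries, from Col4a1 down to Col4a6. Together Col4a1 and Col4a2 supplied 82.4% of the summed FPKM of the 6 chains in the Cd248 KO library, and 86.2%, 86.3% and 85.3% in WT libraries 1, 2 and 3. In WT libraries Col4a1 averaged 183 ± 29.7 FPKM and Col4a2 130 ± 19.7 FPKM (SD, n = 3). Col4a3 averaged 20.2 ± 2.24 FPKM and Col4a4 18.4 ± 1.81 FPKM, and the WT values of this pair overlapped. Col4a5 averaged 10.5 ± 1.69 FPKM, and Col4a6 was the lowest at 1.84 ± 0.48 FPKM.

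None of the 6 chains passed limma's test between Cd248 KO and WT at an adjusted p under 0.05. Over all genes tested 0.723% passed, 0.640% higher and 0.0830% lower in the Cd248 KO library. At an unadjusted p under 0.05, 1 of the 6 chains passed, Col4a2, as lower, where 10.8% of all genes tested passed and 5.63% passed as lower. All 6 differences were below 0, as were 51.4% of those of all genes tested. Of the 6 chains, 5 lay below every WT library, where 31.2% of all genes tested lay below every WT library. The median difference of the 6 chains was -0.27 on the log2(FPKM + 1) scale, against -0.01 over all genes tested. The pair of ubiquitous chains had the largest differences and the α3, α4 and α5 chains the smallest. In the plot of levels by library the Cd248 KO point stands clear of the WT points for Col4a1 and Col4a2 and next to WT library 3 for the others.

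**Figure D2:**
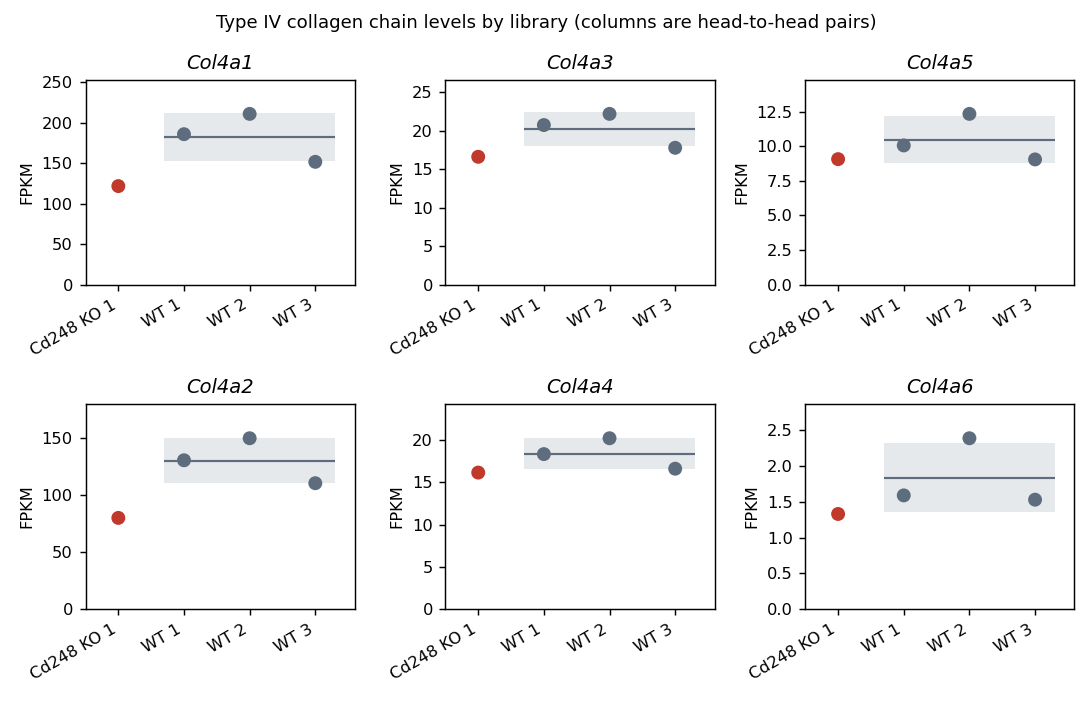
FPKM of each chain by library, with each head-to-head pair in 1 column of panels; red is the Cd248 KO library, grey the WT libraries, and the line and band are the WT mean ± SD (n = 3). Col4a2 stands at 79.7 FPKM in Cd248 KO and at 110 FPKM or more in WT, while Col4a5 at 9.07 FPKM in Cd248 KO lies next to the lowest WT value of 9.05 FPKM.

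Col4a1, which gives the α1 chain, was at 122 FPKM in the Cd248 KO library, against 186, 211 and 152 FPKM in WT libraries 1, 2 and 3. The groups did not overlap, and the Cd248 KO level was 80.2% of the lowest WT library. It was 1.5 times below the WT mean, a log2 difference of -0.57 (SE 0.21, 95% interval -1.14 to 0.00, limma adjusted p = 0.466). Col4a2, which gives the α2 chain, was at 79.7 FPKM in the Cd248 KO library, against 130, 149 and 110 FPKM in WT. The groups did not overlap here either, and the Cd248 KO level was 72.4% of the lowest WT library. It was 1.63 times below the WT mean, a log2 difference of -0.69 (SE 0.20, 95% interval -1.21 to -0.16, unadjusted p = 0.0217, limma adjusted p = 0.384). The authors' deposited table gives this gene a fold change of 0.61 with a q-value of 0.06, and Col4a1 one of 0.67 with a q-value of 0.21, and marks neither as significant, a mark that 0.781% of its genes carry.

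Col4a3, whose α3 chain carries the Goodpasture antigen, was at 16.6 FPKM in the Cd248 KO library, against 20.7, 22.2 and 17.8 FPKM in WT libraries 1, 2 and 3. It lay below every WT library, at 93.4% of the lowest one, with a log2 difference of -0.26 (SE 0.14, 95% interval -0.65 to 0.13, limma adjusted p = 0.590). Its neighbour Col4a4, which gives the α4 chain, was at 16.2 FPKM in Cd248 KO, against 18.4, 20.2 and 16.6 FPKM in WT. The Cd248 KO level was 97.2% of WT library 3, a gap smaller than any between WT libraries, and the log2 difference was -0.17 (SE 0.13, 95% interval -0.53 to 0.18, limma adjusted p = 0.685). The interval of Col4a3 includes a difference the size of the one in Col4a1, and that of Col4a4 ends just short of it.

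Col4a5 and Col4a6 are X-linked, so genes that mark sex are given before them. Xist, the RNA that coats the inactive X in female cells, was at 0.05 FPKM or less in all 4 libraries, and the Y-linked Ddx3y was at 14.5 FPKM in Cd248 KO and between 15.6 and 17.2 FPKM in WT. These genes were looked at once the values of the chains were known. Col4a5, which gives the α5 chain shared by both minor trimers, was at 9.07 FPKM in the Cd248 KO library, against 10.1, 12.3 and 9.05 FPKM in WT libraries 1, 2 and 3. It was the 1 chain whose groups overlapped, with a log2 difference of -0.18 (SE 0.18, 95% interval -0.67 to 0.31, limma adjusted p = 0.760). Col4a6, which gives the α6 chain, was at 1.33 FPKM in Cd248 KO, against 1.59, 2.39 and 1.53 FPKM in WT. Its WT spread was the widest of the 6, a coefficient of variation of 26.1% where the other chains had 9.81% to 16.3%. Its log2 difference was -0.27 (SE 0.21, 95% interval -0.85 to 0.30, limma adjusted p = 0.696). When 0.1 FPKM in place of 1 FPKM was added before taking logs, it was -0.41.

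**Figure D3:**
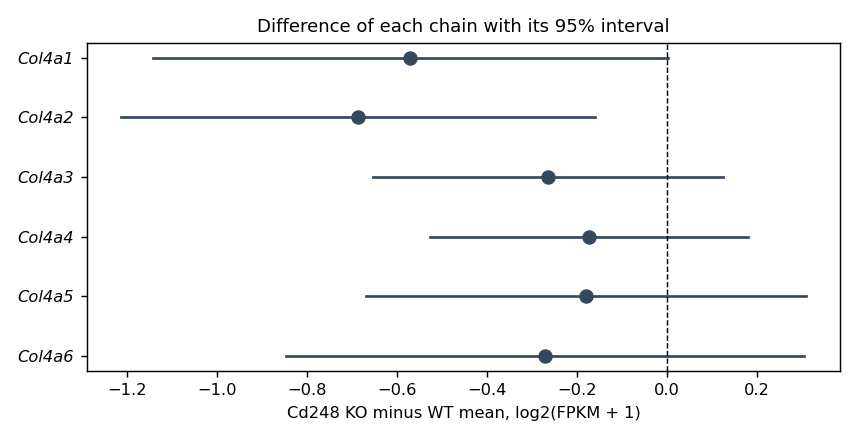
Difference of the Cd248 KO library from the WT mean on the log2(FPKM + 1) scale for each chain, with limma's 95% interval (n = 1 Cd248 KO and 3 WT libraries). All 6 points lie below 0, and the interval of Col4a2, from -1.21 to -0.16, is the one that does not reach 0.

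The WT libraries themselves differed in the same order for every chain. WT library 2 was highest, library 1 next and library 3 lowest in 6 of 6 chains, an order that 17.9% of all genes tested also had. The highest WT library exceeded the lowest by 1.22 times in Col4a4 and by 1.56 times in Col4a6. Without WT library 2 the difference of Col4a5 was -0.07, that of Col4a6 -0.14 and that of Col4a4 -0.11, each moved by more than 1.5 times, while Col4a1 and Col4a2 stood at -0.46 and -0.58. The median of the 6 chains was then -0.17. Without WT library 3, Col4a5 stood at -0.27. No chain passed the test without WT library 1, 2 or 3.

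Ratios between chains cancel what the chains of a library have in common, and 4 such ratios were formed. The ratio of Col4a1 to Col4a2 FPKM was 1.53 in the Cd248 KO library, against 1.43, 1.41 and 1.38 in WT libraries 1, 2 and 3. The ratio of Col4a3 to Col4a4 was 1.03 in Cd248 KO, against 1.13, 1.10 and 1.07 in WT. Both lay outside a narrow WT range, the first above and the second below, with differences from the WT mean of 0.12 and -0.10 on the log2 scale. The ratio of Col4a5 to Col4a6 was 6.82 in Cd248 KO, against 6.33, 5.16 and 5.92 in WT, above a wide WT range, with a log2 difference from the WT mean of 0.24, or of 0.16 without WT library 2.

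The largest shift was between pairs. The summed FPKM of Col4a3, Col4a4 and Col4a5, the chains of the glomerular trimer, divided by that of Col4a1 and Col4a2 was 0.208 in the Cd248 KO library, against 0.155, 0.152 and 0.166 in WT. The log2 difference was 0.40, where the SD of the WT libraries on that scale was 0.07. These 3 chains made up 17.1% of the summed type IV collagen FPKM in Cd248 KO, and 13.4%, 13.1% and 14.2% in WT libraries 1, 2 and 3. An exact two-sided permutation test gave p = 0.25 for this ratio, for Col4a1 to Col4a2 and for Col4a3 to Col4a4, the smallest p that 1 library against 3 allows (0.333 adjusted over the 4 ratios), and p = 0.5 for Col4a5 to Col4a6.

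**Figure D4:**
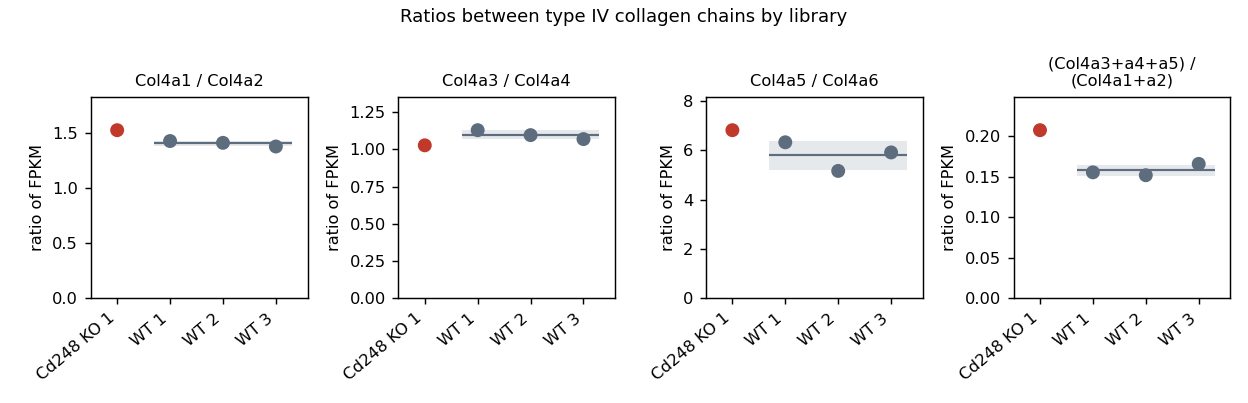
Ratios of FPKM between chains by library; red is the Cd248 KO library, grey the WT libraries, and the line and band are the WT mean ± SD (n = 3). The ratio of the α3, α4 and α5 chains to the α1 and α2 chains is 0.208 in Cd248 KO and between 0.152 and 0.166 in WT.

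The profiles of the chains over the 4 libraries were compared within and across the head-to-head pairs. Likeness was measured as the root mean square difference between log2(FPKM + 1) profiles centred on their WT means, and it describes 4 libraries, 1 of them Cd248 KO. Among 14705 genes with at least 1 FPKM in the WT mean, Col4a2 was the 22nd most like Col4a1, and Col4a1 the 22nd most like Col4a2. Col4a4 ranked 207 for Col4a3, and Col4a3 ranked 305 for Col4a4. Col4a6 ranked 125 for Col4a5, and Col4a5 ranked 37 for Col4a6. The measure itself was 0.061 for Col4a1 and Col4a2, 0.053 for Col4a3 and Col4a4, and 0.065 for Col4a5 and Col4a6. A rank also depends on how many other genes lie near a chain, so the ranks do not order the pairs by closeness. A chain of another pair was nearer than the partner for Col4a5, for which Col4a4 ranked 82, and Col4a5 ranked 376 for Col4a4, close to the partner's 305. Col4a3 and Col4a4 ranked 621 and 1373 for Col4a1, while Col4a1 ranked 5625 for Col4a3 and 10551 for Col4a4. In 572 other pairs of protein-coding genes whose starts lie head to head within 1500 bases or overlap by up to 100 bases, the median partner rank was 4985, and 4.11% of partners ranked 305 or better. The differences between Cd248 KO and WT within a pair were apart by 0.12, 0.09 and 0.09 in the 3 collagen pairs. The median was 0.14 in the other pairs, of which 40% were as close. Ranks, likeness and these gaps used log2(FPKM + 1), which understates the change of low genes such as Col4a6. With nothing added, the gaps of the 3 collagen pairs were 0.12, 0.10 and 0.24, the last in Col4a5 and Col4a6. The other pairs were not recomputed on that scale. These pairs were compared after the values were seen, with no test.

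The genes most like each chain were of mixed kinds. The 3 nearest to Col4a1 were Gpr153, Cav1, which encodes the caveolar protein caveolin-1, and Gm16310. The 3 nearest to Col4a2 were Ak5, Hspg2 and Snord34. Hspg2 encodes perlecan, a heparan sulfate proteoglycan of basement membranes, and was at 13.7 FPKM in the Cd248 KO library, against 21.6, 26.1 and 18.8 FPKM in WT. The 3 nearest to Col4a3 were Soga1, Arrb1 and Ccdc85b, and to Col4a4 Cers4, Dennd2a and Jag2. The 3 nearest to Col4a5 were G0s2, Pde7b and Cwh43, and to Col4a6 Colca2, Adamtsl1 and Mgll. The nearest gene differed from its chain by 0.01 or 0.02 in each case.

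Genes that build the rest of the basement membrane lay mostly below the WT libraries. Of 23 partners of type IV collagen, 0 passed limma's test in either direction (7 at an unadjusted p under 0.05), 15 lay below every WT library and 3 above, with a median difference of -0.25. Over all genes tested, 31.2% lay below every WT library, 28.0% lay above, and 10.8% had an unadjusted p under 0.05 in limma's test. The largest differences were in Lama4, the laminin α4 chain of vessel walls, in Lamb3 and in Col15a1. Lama4 was at 1.82 FPKM in the Cd248 KO library, against 4.59, 4.96 and 4.21 FPKM in WT (log2 difference -0.98, limma adjusted p = 0.0884). Lamb3, a chain of the epithelial laminin-332, was at 1.39 FPKM, against 3.94, 3.64 and 2.69 FPKM (adjusted p = 0.302). Col15a1, a collagen of the outer face of vessel and muscle basement membranes, was at 33.5 FPKM, against 52.8, 61.1 and 49.1 FPKM (adjusted p = 0.287). Picked with their values known, Lama5 and Lamb2, chains of the mature glomerular laminin, overlapped between groups, at 37.2 and 19.4 FPKM in Cd248 KO and at 30.7 to 38.2 and 19.0 to 22.8 FPKM in WT. Lamc1, the third chain of that laminin and a chain of many others, was at 14.4 FPKM in Cd248 KO, below the WT values of 23.3, 25.9 and 20.6 FPKM (limma adjusted p = 0.300).

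The enzymes and chaperones that process type IV collagen had a median difference of -0.30, with 0 of 18 past limma's test (8 at an unadjusted p under 0.05), 16 below every WT library and 1 above. Over all genes tested, 10.8% had an unadjusted p under 0.05 in limma's test, 31.2% lay below every WT library and 28.0% above. Loxl2, a lysyl oxidase that crosslinks its 7S ends, was at 13.0 FPKM in the Cd248 KO library, against 29.9, 33.0 and 26.5 FPKM in WT (log2 difference -1.13, limma adjusted p = 0.103). Sparc, a collagen-binding matricellular protein, was at 176 FPKM, against 325, 353 and 267 FPKM (adjusted p = 0.315). Serpinh1, the collagen chaperone HSP47, was at 101 FPKM, against 177, 161 and 143 FPKM (adjusted p = 0.315). Each of these lay below all WT libraries, as 31.2% of all genes tested did, without passing the test.

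Among 6 receptors 0 passed limma's test (3 at an unadjusted p under 0.05), 4 lay below every WT library and 1 above, with a median difference of -0.34. Itga2, the α2 integrin chain of a collagen receptor, was at 1.83 FPKM in the Cd248 KO library, against 6.68, 4.78 and 4.2 FPKM in WT (log2 difference -1.12, limma adjusted p = 0.290). Ddr2, a collagen-sensing tyrosine kinase, was at 9.78 FPKM, against 14.95, 16.0 and 13.7 FPKM (adjusted p = 0.269), and Itgb1, the shared β1 integrin chain, at 143 FPKM, against 208, 195 and 170 FPKM (adjusted p = 0.477). The 1 receptor above every WT library was Ddr1, named after its value was seen, at 46.3 FPKM in Cd248 KO and between 38.0 and 39.2 FPKM in WT (adjusted p = 0.419). Of 9 proteases and inhibitors 8 could be tested, 0 passed (3 at an unadjusted p under 0.05), 6 lay below every WT library and 0 above, with a median of -0.63. Mmp14, a membrane-bound protease, was at 23.9 FPKM in Cd248 KO, against 43.8, 33.8 and 42.2 FPKM in WT, and the gelatinase Mmp2 at 24.0 FPKM, against 33.3, 40.4 and 44.2 FPKM. The gelatinase Mmp9 was at 2.60 FPKM in Cd248 KO, inside a WT range of 1.28 to 17.4 FPKM. Of all genes tested, 31.2% lay below every WT library, 28.0% lay above, and 10.8% had an unadjusted p under 0.05 in limma's test.

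**Figure D5:**
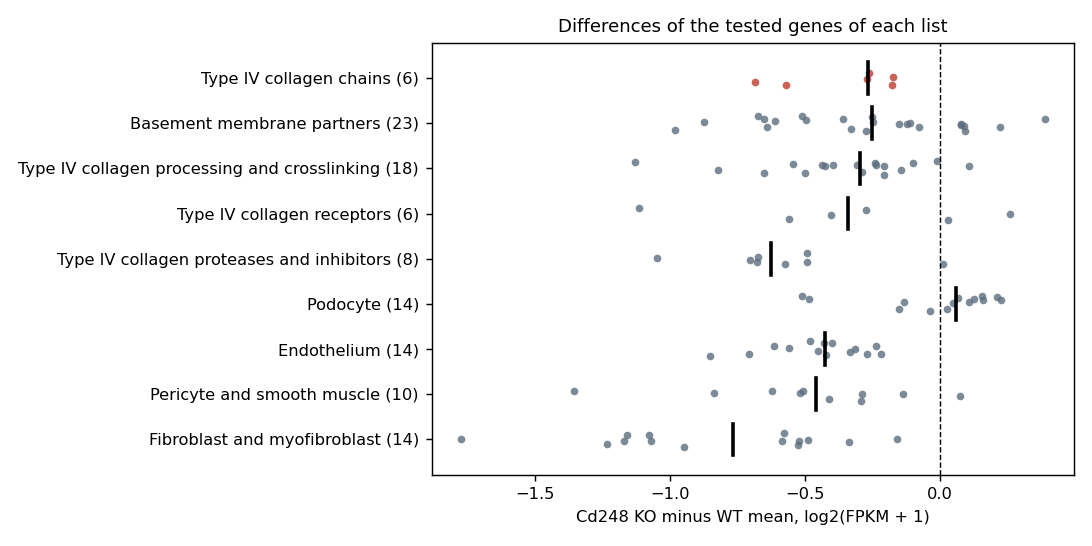
Differences of Cd248 KO from the WT mean on the log2(FPKM + 1) scale for the tested genes of each list, with black bars at the medians and the number tested in parentheses. The type IV collagen chains (red) have a median of -0.27, podocyte markers one of 0.06 and endothelial markers one of -0.43.

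As a set, other collagens had a lower median difference than the type IV chains. Of 28 other collagen genes tested, a set drawn up after values were seen, 3 passed as lower (Col1a1, Col12a1 and Col5a2) and 0 as higher. Over all genes tested, 0.0830% passed as lower and 0.640% as higher. Below every WT library lay 24 of the 28, where 31.2% of all genes tested did. The median of the 28 was -0.68, where the type IV chains had -0.27. Col1a1, a chain of the fibrillar type I collagen of scars, was at 68.8 FPKM in the Cd248 KO library, against 159, 170 and 160 FPKM in WT (log2 difference -1.23, limma adjusted p = 0.0313). Col1a1, Col12a1 and Col5a2 each lost the call with the immunoglobulin genes left out (adjusted p = 0.186, 0.126 and 0.189) and without WT library 1, 2 or 3 (between 0.102 and 0.309 over the 3 genes). Their differences were -1.15, -1.49 and -0.92 with the immunoglobulin genes left out. Without any 1 WT library they were -1.20 to -1.25, -1.52 to -1.62 and -0.97 to -1.01. Among the type IV chains, Col4a2 stood at -0.69, next to the median of the other collagens, and Col4a1 at -0.57. The remaining type IV chains lay between -0.27 and -0.17. The difference between the type IV chains and the other collagens was not tested.

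Markers of cells known to make these chains are given beside them, since fewer cells of a type and less RNA per cell cannot be told apart in bulk tissue. For comparison, 31.2% of all genes tested lay below every WT library and 28.0% above. In limma's test 10.8% had an unadjusted p under 0.05. Podocyte markers, the cells of the α3, α4 and α5 chains, summed to 191 FPKM in the Cd248 KO library, within the WT values of 236, 189 and 175 FPKM in libraries 1, 2 and 3. Of 14 markers 0 passed limma's test (2 at an unadjusted p under 0.05), 2 lay below every WT library and 0 above, with a median of 0.06. Nphs1, the slit diaphragm protein nephrin, was at 10.3 FPKM in Cd248 KO, against 11.3, 7.35 and 7.74 FPKM in WT. The 2 below were Tcf21, at 20.5 FPKM against 28.0, 29.3 and 32.1 FPKM, and Kirrel, at 9.48 FPKM against 15, 14.4 and 11.9 FPKM; Tcf21 is also made by interstitial fibroblasts.

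Endothelial markers, of cells rich in the α1 and α2 chains, summed to 207 FPKM in Cd248 KO, below 287, 341 and 269 FPKM in WT libraries 1, 2 and 3. All 14 markers tested lay below every WT library, 0 passed limma's test (7 at an unadjusted p under 0.05), and their median was -0.43. Cdh5, the cadherin of endothelial junctions, was at 15 FPKM in Cd248 KO, against 29.1, 32.1 and 23.3 FPKM in WT (limma adjusted p = 0.305). Robo4 was at 4.56 FPKM, against 7.85, 9.52 and 7.05 FPKM, and Eng (endoglin) at 31.1 FPKM, against 46.7, 55.2 and 43.3 FPKM. Among all genes tested, 31.2% lay below every WT library and 10.8% had an unadjusted p under 0.05 in limma's test. The endothelial sum was highest in WT library 2 and lowest in library 3, the order of the 6 chains. The fibroblast, pericyte and urothelial sums below, and those of the basement membrane partners and processing genes, had that order too. For the processing genes WT libraries 1 and 2 were nearly equal, at 929.34 and 929.39 FPKM. The podocyte, receptor, protease, proximal tubule, distal nephron, plasma cell and immediate early sums had other orders.

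Fibroblast and myofibroblast markers summed to 397 FPKM in Cd248 KO, below 845, 1008 and 807 FPKM in WT, with a median of -0.77. Of the 14 markers, 13 lay below every WT library, where 31.2% of all genes tested did. As lower, 2 of the 14 passed, where 0.0830% of all genes tested passed. The 2 were Col1a1 and Acta2, the actin of myofibroblasts, which was at 38.9 FPKM in Cd248 KO, against 133, 145 and 130 FPKM in WT (limma adjusted p = 0.0153). Acta2 lost the call with the immunoglobulin genes left out (adjusted p = 0.102) and without any 1 WT library (between 0.108 and 0.119), as Col1a1 did. The Acta2 difference was -1.78, and it was -1.69 with the immunoglobulin genes left out and -1.73 to -1.81 without any 1 WT library. Col3a1, of the type III fibrillar collagen, was at 83.2 FPKM, against 173, 239 and 162 FPKM (adjusted p = 0.287). Pericyte and smooth muscle markers summed to 95.7 FPKM in Cd248 KO, below 136, 141 and 117 FPKM in WT. Of the 10 markers 0 passed limma's test (4 at an unadjusted p under 0.05, where 10.8% of all genes tested passed). Below every WT library lay 9 of the 10, and their median was -0.46. Of these Cnn1 (calponin 1) was at 1.49 FPKM, against 4.61, 5.68 and 5.91 FPKM (adjusted p = 0.0762), the smooth muscle myosin Myh11 at 5.00 FPKM, against 9.14, 11.1 and 9.07 FPKM, and Mcam at 17.4 FPKM, against 31.5, 27.3 and 23.7 FPKM.

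None of the tubular markers tested lay below every WT library. Of all genes tested, 31.2% lay below every WT library, 28.0% lay above, and 0.640% passed limma's test as higher. At an unadjusted p under 0.05 in that test, 10.8% passed. Distal nephron and collecting duct markers had a median of 0.06, with 0 of 11 passing (0 at an unadjusted p under 0.05) and 2 above every WT library; the thiazide-sensitive transporter Slc12a3 was at 31.5 FPKM in Cd248 KO, against 18.7, 27.5 and 29.97 FPKM in WT, and Calb1 and Slc12a1, at 2.33 and 38.95 FPKM, lay inside WT ranges of 1.91 to 4 and 26.2 to 40.8 FPKM. Proximal tubule markers had a median of 0.56, with 0 of 12 passing (0 at an unadjusted p under 0.05) and 4 above every WT library; Slc13a3 was at 21.8 FPKM in Cd248 KO, against 2.72, 9.30 and 17.0 FPKM, and Slc22a6 at 26.7 FPKM, against 2.91, 13.4 and 23.0 FPKM, while Miox, at 50.2 FPKM, lay inside a WT range of 6.58 to 55.6 FPKM. Urothelial markers summed to 26.3 FPKM in Cd248 KO, against 100, 107 and 31.1 FPKM in WT, with 0 of 8 passing (0 at an unadjusted p under 0.05), 7 below every WT library and a median of -1.82. Psca was at 1.04 FPKM in Cd248 KO and between 3.16 and 21.8 FPKM in WT, Upk1b at 0.19 FPKM and between 1.57 and 10.99 FPKM, and Upk2 was listed at 0 FPKM in Cd248 KO and at 0.74 to 5.44 FPKM in WT. Immediate early and heat shock genes, which respond to stress and handling, had a median of -0.53 with 0 of 13 passing (2 at an unadjusted p under 0.05) and 11 below every WT library. Dusp1 was at 7.02 FPKM in Cd248 KO, against 15.6, 19.6 and 13.6 FPKM in WT, and Hspa1a and Fos at 7.77 and 4.02 FPKM, against WT ranges of 9.68 to 25.3 and 4.22 to 10.1 FPKM. The sum of these genes, 288 FPKM in Cd248 KO, was within the WT range of 287 to 412 FPKM. Plasma and B cell markers were called higher in 6 of 10 tested (Igkc, Jchain, Mzb1, Pou2af1, Cd79a and Derl3), with a median of 1.84. Igkc, the kappa light chain constant region, was at 4153 FPKM in Cd248 KO and between 61.7 and 119 FPKM in WT. With the immunoglobulin genes left out, Mzb1 alone of the other 5 passed (adjusted p = 0.0193, against 0.0613 to 0.168). Mzb1 also passed without each WT library, Jchain passed without library 1 alone and Pou2af1 without library 2 alone, and Igkc, Cd79a and Derl3 lost the call without any 1 of them. The differences of Igkc, Cd79a and Derl3 without any 1 WT library were 5.32 to 5.79, 1.78 to 1.96 and 1.77 to 1.81. The part of each of these cell populations in the levels of the chains was not tested.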

How the data were processed

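Kidney mRNA of obstructed mouse kidneys was sequenced, and sample titles gave the groups and replicate numbers. The labels name 6 samples, of which 1 Cd248 KO and 3 WT libraries had a value column used here; the test had been laid out for all libraries with a column. Cutadapt 1.9, FastQC, HISAT2 2.0.4 and build mm10 are named, without roles, per the submitters' processing notes. The sources used here do not name the program that made the values. FPKM values were deposited by the authors, rounded to 2 decimals. The authors' deposited fold change is the ratio of Cd248 KO FPKM to the WT mean, and the deposited log2 fold change of the 6 chains is its logarithm. Cd248, with a deposited fold change of 0, has a deposited log2 fold change of -16.48. The sources used here do not say how that value was formed. They also do not name the test that gave the deposited p-values and q-values.

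Values were analysed as log2(FPKM + 1) with limma 3.58.1 in R 4.3.3, with a mean-variance trend, over genes averaging 0.5 FPKM or more, with Benjamini-Hochberg adjustment over all 16871 genes and a threshold of 0.05. The fit had 2 residual and 2.32 prior degrees of freedom, and the Cd248 KO library is assumed to vary like the WT libraries. The fit was also run on simulated data in which the Cd248 KO library varied like the WT libraries, so that assumption was not tested. Coordinates and exons came from GENCODE M21, whose build is that of the files, and promoter windows from RefSeq. The genes named were the 6 chains, Cd248, in each list the members called and the 3 with the largest difference and at least 1 FPKM, and the 3 genes most like each chain; exceptions are marked. The members and lists were chosen with earlier results of these data known.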

Additional observations from a re-analysis of the deposited data

How the results depend on the processing

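The 6 differences were recomputed under 11 alternatives each (pseudocount, filter, scaling, trend, immunoglobulin genes, and leaving out each WT library), and none changed sign or passed the test; the adjusted p of Col4a2 lay between 0.290 and 0.754 and that of Col4a1 between 0.339 and 0.821. When every library was brought to an equal FPKM total, the median of all genes tested moved to -0.11 and the median of the 6 chains to -0.37, and Col4a1 and Col4a2 stood at -0.70 and -0.82. The small differences of Col4a4 and Col4a5 moved with the scaling too, to -0.30 and -0.30 with the equal total. Immunoglobulin genes were left out in another run, with the remaining genes of each library scaled up to that library's own FPKM total. There Col4a4 and Col4a5 stood at -0.09 and -0.10, and totals were not made equal between libraries. The 4 ratios between chains were recomputed with 0.1 FPKM added and with each WT library left out. With 0.1 FPKM added, the log2 difference of Col4a5 to Col4a6 went from 0.24 to 0.22, and the others moved by less. No difference of a ratio changed sign in any of these runs. Leaving out 1 of so few WT libraries cannot move such a difference by as much as the WT SD. The size of those moves was therefore not a test against the WT spread. The counts over the whole table were less stable than the chains. Genes called higher and lower numbered 108 and 14, and became 33 and 6 with a pseudocount of 0.1 FPKM, 949 and 27 with no filter, 129 and 24 with the same FPKM total, and 1 and 1 with the immunoglobulin genes left out. Leaving out 1 WT library gave 41 to 72 higher and 1 to 4 lower genes. With the immunoglobulin genes left out, those genes were not tested and could not be counted. Leaving out a WT library also lowers the residual degrees of freedom of the fit. The part of either in these shifts was not tested. Read depth is unknown, so no counting error could be given for Col4a6 or other low genes. No paired analysis was possible, because 1 Cd248 KO library was used and the labels state no pairing of libraries.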
